A study of Homo sapiens with 12 samples.

Results

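Peaks of unusual width were examined across the binding maps of a catalytically inactive Cas9 (dCas9) programmed with 6 different single guide RNAs (sgRNAs). A peak was counted as wide when its end minus its start in the deposited list was at least 2000 bp, so the members were chosen by their own measured width. In all, 532 of 58042 peaks (0.917%) met this limit, and they lay in 7 of the 9 lists. The data were chromatin immunoprecipitation sequencing (ChIP-seq) peak lists made in HEK 293T, an established human line of embryonic kidney origin that carries the SV40 large T antigen. Cells had been transfected with dCas9 and a guide, harvested after 3 days, and precipitated with an antibody against the HA tag.

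The groups were cells with sgRNA1, sgRNA2 or sgRNA3, with 2 libraries each (replicate 1 and replicate 2), and cells with sgRNA4, sgRNA5 or sgRNA6, with 1 library each. All 9 libraries shared the cell line, the dCas9 and the antibody. The labels do not tell whether the replicates were transfected separately, so the spread between replicates may be technical. Tests of wide against narrower peaks ran over 7 libraries of different guides, both sgRNA2 libraries among them. Their p-values thus measure a spread between lists, and lists that share regions are not fully independent. Cells with dCas9 and no sgRNA were not analysed here, so no value could be set beside a background without a guide. The lists hold no read counts, the depth of each library is unknown, and list lengths ran between 41 and 33611 peaks. Positions are given in hg19, counted from 1, and no gene annotation or sequence of that build was used here.

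A Cas9 guided by an sgRNA searches DNA for a short protospacer adjacent motif, and then pairs the guide with the neighbouring bases, beginning with the seed next to that motif. Binding of the inactive protein tolerates far more mismatches than cutting does, and is easier in accessible chromatin. A single bound site pulls down fragments that form a compact peak about as wide as the sheared DNA is long. A wide peak in a peak caller's output is a stretch in which neighbouring enriched windows were joined into 1 interval.

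The number of wide peaks differed widely between lists, and wide peaks were a small minority in each. Replicate 1 and replicate 2 of sgRNA1 held 0 of 96 and 9 of 1278 wide peaks, those of sgRNA2 held 1 of 58 and 13 of 570, and those of sgRNA3 held 0 of 41 and 4 of 382. With sgRNA4, 167 of 13660 peaks were wide, with sgRNA5 35 of 8346, and with sgRNA6 303 of 33611. As shares, these were 0.704% for sgRNA1 replicate 2 (exact 95% binomial interval 0.323 to 1.33%), 1.72% for sgRNA2 replicate 1 (0.0436 to 9.24%), 2.28% for sgRNA2 replicate 2 (1.22 to 3.87%) and 1.05% for sgRNA3 replicate 2 (0.286 to 2.66%). The shares were 1.22% with sgRNA4 (1.05 to 1.42%), 0.419% with sgRNA5 (0.292 to 0.583%) and 0.901% with sgRNA6 (0.803 to 1.01%). A count of 0 in the replicate 1 lists of sgRNA1 and sgRNA3 allows shares of up to 3.12% and 7.32% by the limit of 3 counts, or 3.77% and 8.60% by the exact 95% interval, so those lists were too short to show a difference from the others. Intervals and limits cover counting error only.

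Among the replicated guides, the mean share of wide peaks was 2.00 ± 0.394% for sgRNA2, 0.524 ± 0.740% for sgRNA3 and 0.352 ± 0.498% for sgRNA1, each over 2 libraries with the SD. The sgRNA2 share was the highest in both replicates. The shares rest on the width that chose the members, and 15 arrangements of 6 libraries allow no p under 0.0667, so an exact permutation test (two-sided p = 0.200) could not have passed and the shares stand as a description. Wide peaks took 6.62% of the covered length in sgRNA2 replicate 1 and 6.09% in sgRNA2 replicate 2. They took 2.57% in sgRNA1 replicate 2 and 3.20% in sgRNA3 replicate 2. The values were 3.60% with sgRNA4, 1.43% with sgRNA5 and 2.95% with sgRNA6.

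**Figure D1:**
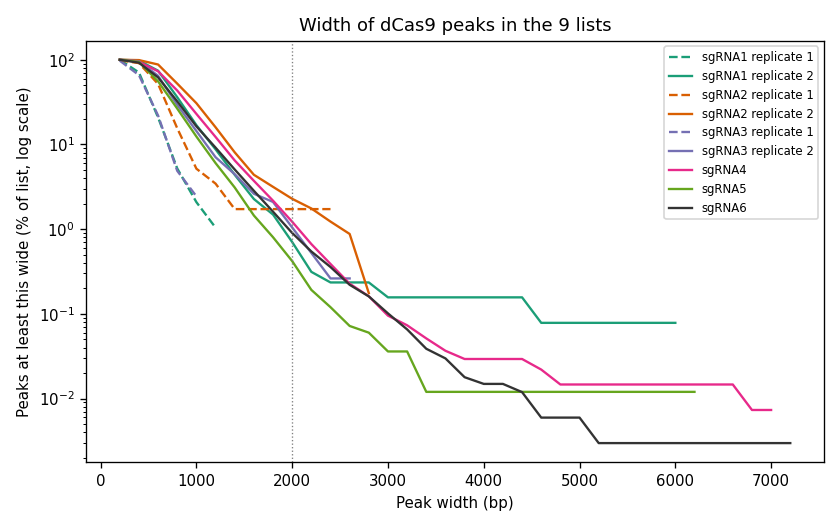
Share of each list, in percent on a log scale, that reached the peak width on the x axis (bp), for the 9 lists, with replicate 1 lists dashed and the 2000 bp limit dotted. At the limit the lists with wide peaks lie between 0.419% (sgRNA5) and 2.28% (sgRNA2 replicate 2), and the sgRNA1 and sgRNA3 replicate 1 lines end before it.

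Most members lay close to the limit. The median width of the 532 peaks was 2268.5 bp, with quartiles of 2103 and 2568.25 bp, and 370 of them (69.5%) were under 2500 bp. Just inside the limit, 3 sgRNA6 peaks were exactly 2000 bp wide, at chr1:228086743-228088742, at chr15:76030037-76032036 and at chr3:129829610-129831609, with scores of 205, 378 and 521. Just outside it were 2 peaks of 1999 bp, a sgRNA4 peak at chr11:1270783-1272781 (score 188) and a sgRNA5 peak at chr14:105742053-105744051 (score 1211). Widths passed smoothly through the limit, with 32 peaks less than 20 bp above it and 33 at most 20 bp below it. Only 12 peaks reached 4000 bp, 5 of them with sgRNA6, 4 with sgRNA4, 2 in sgRNA1 replicate 2 and 1 with sgRNA5.

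Within their lists, wide peaks mostly had high scores, except with sgRNA2. Scores are those the authors deposited with each peak, and percentiles of score were taken within 1 list. The median percentile of wide peaks was 91.5 in sgRNA1 replicate 2, 51.7 for the single wide peak of sgRNA2 replicate 1, 53.2 in sgRNA2 replicate 2, 87.4 in sgRNA3 replicate 2, 91.0 with sgRNA4, 95.7 with sgRNA5 and 95.7 with sgRNA6. Of the 303 sgRNA6 wide peaks, 227 lay in the 10% of the list with the highest scores, as did 25 of 35 with sgRNA5 and 87 of 167 with sgRNA4. None of the 13 wide peaks of sgRNA2 replicate 2 did, and the highest-scored of them ranked 63 of 570. Score and width come from the same peak call, so these percentiles are a description without a test. Across all peaks of a list, Spearman's rho between width and score was 0.438 with sgRNA4, 0.475 with sgRNA5, 0.512 with sgRNA6, and between 0.0896 and 0.365 in the other 6 lists.

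**Figure D2:**
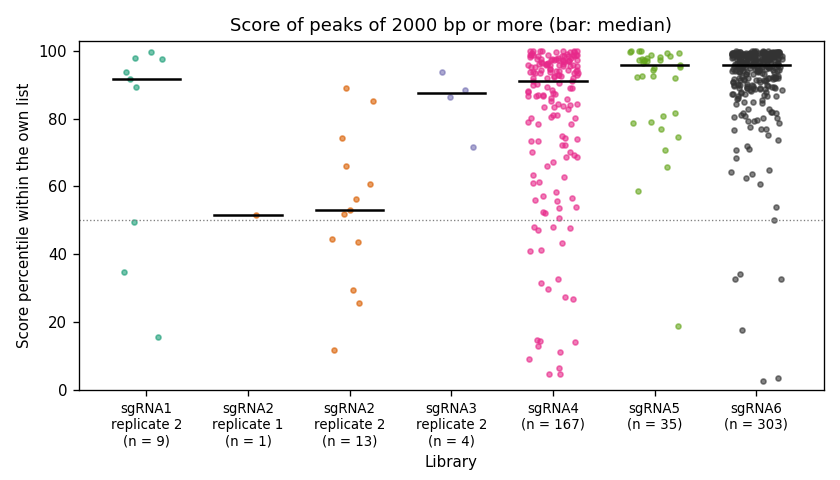
Score percentile within the own list (y axis, 0 to 100) of each peak of 2000 bp or more, by library, with the median as a bar and the 50th percentile dotted. Medians lie at 87.4 or above in 5 libraries and at 51.7 and 53.2 in the sgRNA2 replicates.

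Some wide peaks nevertheless scored low within their lists, and the lowest of them lay close to a score of 50, under which no deposited score lies. With sgRNA4, 21 of 167 wide peaks lay below the 50th percentile, and their lowest score was 51.2. The corresponding numbers were 6 of 303 with sgRNA6 (lowest score 51.1), 1 of 35 with sgRNA5 (54.5), 3 of 9 in sgRNA1 replicate 2 (53.0) and 5 of 13 in sgRNA2 replicate 2 (51.2).

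A single stretch of chromosome 1 held the largest group of wide peaks. Between 161411297 and 161440600, a span of 29.3 kb, 16 wide peaks were called with 4 guides, 7 with sgRNA6, 4 with sgRNA5, 3 with sgRNA4 and 2 in sgRNA1 replicate 2. The widest peak of the sgRNA4 list (7193 bp, 161411297 to 161418489), of the sgRNA5 list (6384 bp, 161418529 to 161424912) and of the sgRNA6 list (7290 bp, 161418569 to 161425858) all lay here. So did the sgRNA4 peak of 6740 bp at 161423051 to 161429790 and that of 4440 bp at 161418537 to 161422976. The widest peaks here did not lead their lists by score: the sgRNA6 peak of 7290 bp scored 317 (rank 2271 of 33611), the sgRNA4 peak of 7193 bp scored 145 (rank 1894 of 13660), and the sgRNA5 peak of 6384 bp scored 132 (rank 616 of 8346).

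Some of these peaks began at nearly the same base with several guides, and others did not. Peaks of sgRNA4, sgRNA6 and sgRNA1 replicate 2 began within 10 bp of each other at 161411297 to 161411307. Peaks of sgRNA5, sgRNA4, sgRNA6 and sgRNA1 replicate 2 began within 111 bp at 161418529 to 161418640. By contrast, a sgRNA4 peak began at 161423051, between sgRNA6 starts at 161418569 and 161426009, and a sgRNA5 peak began at 161415037, between sgRNA6 starts at 161414300 and 161418569. The 7 sgRNA6 peaks covered 94.6% of the span, and 5 of the 6 gaps between them were 54, 58, 72, 86 and 150 bp, the other being 1149 bp. The 3 sgRNA4 peaks covered 62.7% of the span, with gaps of 47 and 74 bp. The 4 sgRNA5 peaks covered 50.2% and the 2 sgRNA1 replicate 2 peaks 24.9%.

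A few further members stood out by width. In sgRNA1 replicate 2 the widest peak was 6010 bp, at chr15:102299439-102305448, scoring 368 (rank 5 of 1278). It overlapped peaks of 2 other guides, and of 1 of them as many as 3 peaks. With sgRNA6, the second widest peak (5043 bp) lay at chr15:101094140-101099182 with score 3100 (rank 4), and the third (4448 bp) at chr5:561537-565984 scoring 771 (rank 242), with no peak of another guide. The remaining sgRNA6 peaks among the 5 widest lay in the chromosome 1 stretch, at 161433364 to 161437766 (4403 bp) and at 161414300 to 161418514 (4215 bp).

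With sgRNA4, the third widest peak (4692 bp) lay at chr8:58121219-58125910 (score 85.9, rank 5333), and the fifth (3636 bp) at chr2:91802605-91806240 (score 55.0, rank 11657). With sgRNA5, the next widest were at chr1:161429980-161433299 (3320 bp), at 148927840 to 148931050 (3211 bp) and at 143912171 to 143915092 (2922 bp), and at chr13:80912816-80915654 (2839 bp). Width and score thus ordered the peaks differently. Of these 4, the 2922 bp peak ranked 14 by score (446) and the 3211 bp peak ranked 417 (150).

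The replicated guides had few wide peaks. Besides the 6010 bp peak, sgRNA1 replicate 2 held wide peaks at chr1:161418640-161423066 (4427 bp), 161411307 to 161414173 (2867 bp) and 206137028 to 206139139 (2112 bp), and at chr9:82184711-82187046 (2336 bp). The others were at chr17:19280615-19282811 (2197 bp) and at 17654543 to 17656622 (2080 bp), at chr12:112450325-112452378 (2054 bp) and at chr18:32556674-32558676 (2003 bp). All 9 overlapped 2 or more peaks of other guides, as did 71.8% of all peaks in that list, and 87.6% of all its peaks overlapped at least 1.

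The 5 widest in sgRNA2 replicate 2 lay at chr19:17447054-17449886 (2833 bp, score 51.2), at chr7:56438044-56440839 (2796 bp, 60.3), at chr17:20345860-20348576 (2717 bp, 60.0), at chr13:62741061-62743750 (2690 bp, 61.3) and at chr1:228327150-228329750 (2601 bp, 83.2). By score these 5 ranked between 63 and 504 of 570. In sgRNA3 replicate 2 the 4 wide peaks lay at chr14:19640886-19643524 (2639 bp, score 69.9), at chr1:143436552-143438891 (2340 bp, 89.0) and 228782366 to 228784408 (2043 bp, 106), and at chr17:18963899-18966006 (2108 bp, 86.6).

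Few wide peaks had a counterpart in the replicate of the same guide. Of the 26 wide peaks in the 3 replicate 2 lists, 2 (7.69%, exact 95% binomial interval 0.946 to 25.1%) overlapped a replicate 1 peak. The interval pools 3 lists and covers counting error only. Of the narrower replicate 2 peaks, 2.76% did so for sgRNA1, 2.69% for sgRNA2 and 4.23% for sgRNA3, so at these list lengths no difference between width classes was detectable. One counterpart was wide in both replicates: the sgRNA2 region on chromosome 13 was 2690 bp wide in replicate 2 (score 61.3, rank 250) and 2497 bp wide in replicate 1 at 62741369 to 62743865 (score 56.3, rank 29 of 58). The other was the sgRNA3 region on chromosome 1 at 143436552, which was 2340 bp wide in replicate 2 and matched a replicate 1 peak of 1100 bp at 143437945 to 143439044. The sgRNA3 region overlapped no peak of another guide and was the only wide peak of the replicated guides of which this was true.

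Most wide peaks overlapped peaks of other guides, usually several of them. For this count peaks from both replicates of a guide were joined into a common set, and 1 bp of overlap was enough. Of all 532 wide peaks, 325 (61.1%) overlapped 2 or more peaks of other guides, against 19.1% of all peaks in the 7 lists. This pooled share mixes lists, and the same region can enter from several of them, so it carries no interval. With sgRNA4, 102 of 167 wide peaks (61.1%) overlapped several peaks, 40 overlapped 1 and 25 none. Of all sgRNA4 peaks, 22.9% overlapped several and 53.1% at least 1. With sgRNA5, 29 of 35 wide peaks (82.9%) overlapped several, 5 overlapped 1 and 1 none, against 35.8% of all peaks with several and 65.1% with at least 1. With sgRNA6, 170 of 303 wide peaks (56.1%) overlapped several, 83 overlapped 1 and 50 none, against 9.79% of all peaks with several and 27.1% with at least 1. In sgRNA1 replicate 2, all 9 wide peaks overlapped several, against 71.8% of all peaks. The shares lay closest together in sgRNA2 replicate 2 and sgRNA3 replicate 2. Several peaks were overlapped by 11 of 13 wide peaks (84.6%) and 75.8% of all peaks in sgRNA2 replicate 2, and by 3 of 4 wide peaks (75%) and 69.9% of all peaks in sgRNA3 replicate 2. The single wide peak of sgRNA2 replicate 1 overlapped 2, and 60.3% of all peaks in that list overlapped several. At least 1 peak was overlapped by 94% of all peaks in sgRNA2 replicate 2, 81.7% in sgRNA3 replicate 2 and 74.1% in sgRNA2 replicate 1.

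Overlap with several peaks grows with width by construction and was not tested. Some overlaps were with several peaks of 1 guide: 75 of 303 sgRNA6 wide peaks (24.8%), 43 of 167 with sgRNA4 (25.7%) and 13 of 35 with sgRNA5 (37.1%) covered 2 or more peaks of the same other guide. Among narrower peaks this was the case for 0.919% with sgRNA6, 3.13% with sgRNA4 and 2.73% with sgRNA5. The most that 1 wide peak covered was 3 peaks of a guide.

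**Figure D3:**
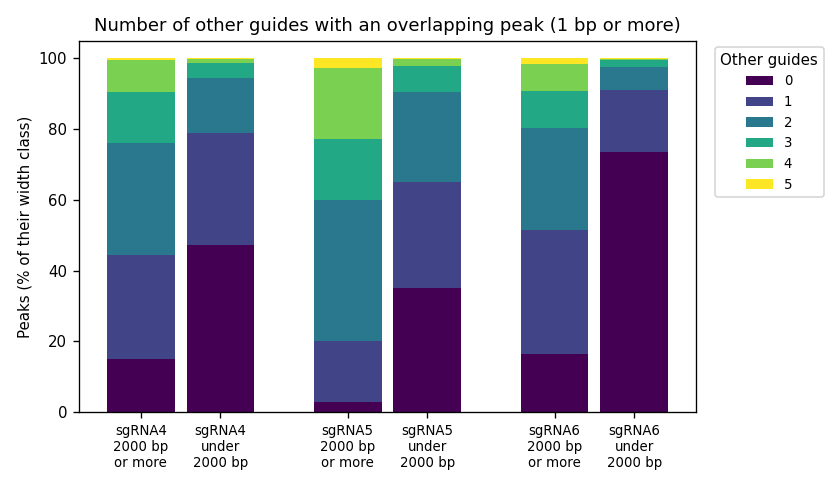
Share of peaks (y axis, percent of their width class) that overlapped by at least 1 bp a peak of 0 to 5 other guides, for peaks of 2000 bp or more beside narrower peaks of the sgRNA4, sgRNA5 and sgRNA6 lists. No other guide was found at 15%, 2.86% and 16.5% of the wide peaks, against 47.3%, 35.0% and 73.4% of the narrower ones.

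The pairs of guides differed in how far their wide peaks met. Of the 303 sgRNA6 wide peaks, 227 (74.9%) overlapped a sgRNA4 peak and 155 (51.2%) a sgRNA5 peak, against 19.6% and 13.9% of narrower sgRNA6 peaks. Of the 167 sgRNA4 wide peaks, 135 (80.8%) overlapped a sgRNA6 peak and 92 (55.1%) a sgRNA5 peak, against 47.9% and 22.7% of narrower sgRNA4 peaks. Both sides being wide was less common than overlap with a peak of any width. Of the sgRNA4 wide peaks, 47 (28.1%) met a wide sgRNA6 peak, and 48 sgRNA6 wide peaks (15.8%) met a wide sgRNA4 peak. With sgRNA5, 15 of 35 wide peaks (42.9%) met a wide sgRNA6 peak and 12 (34.3%) a wide sgRNA4 peak. A wide peak of any other guide was met by 34.7% of wide and 1.89% of narrower sgRNA4 peaks. The shares were 60% and 2.86% with sgRNA5, and 19.8% and 0.438% with sgRNA6. Such overlap grows with width by construction and was not tested.

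To compare width classes without the advantage of a longer interval, a peak was next called shared when its midpoint lay inside a peak of another guide. With sgRNA4, 116 of 167 wide peaks (69.5%) were shared, against 46.6% of narrower peaks, and 46.8% of all peaks were called. With sgRNA5, 33 of 35 (94.3%) were shared, against 60.9% of narrower and 61% of all peaks. With sgRNA6, 198 of 303 (65.3%) were shared, against 22.7% of narrower and 23% of all peaks. In the replicated guides the wide peaks were shared in 9 of 9 cases in sgRNA1 replicate 2 (narrower 85.5%, all peaks 85.6%) and in 1 of 1 in sgRNA2 replicate 1 (71.9%, all 72.4%). The order was turned in sgRNA2 replicate 2, with 11 of 13 (84.6%, narrower 90.5%, all 90.4%), and in sgRNA3 replicate 2, with 3 of 4 (75%, narrower 79.9%, all 79.8%).

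The mean difference, wide minus narrower, was 18.7 ± 18.6 percentage points (SD, n = 7 libraries). It was positive in 5 of 7 libraries and did not pass the test (exact sign-flip permutation test, two-sided p = 0.0625, adjusted p = 0.0833 by Benjamini-Hochberg over 4 such tests). It was smaller against peaks of 1000 bp up to the limit (2.13 points), for the widest 1% of each list (5.46) and with peaks within 1000 bp merged (10.4), and larger with a limit of 3000 bp (31.3). It passed when the sgRNA6 list was left out as a partner (24.9 points, exact sign-flip test, adjusted p = 0.0208). Score moved with width, and its part in the difference was not tested. Within the 10% of peaks with the highest scores, 66.1% of 227 wide and 46.5% of 3135 narrower peaks of the sgRNA6 list were shared, 66.7% of 87 and 60.8% of 1279 in the sgRNA4 list, and 96% of 25 and 87.9% of 810 in the sgRNA5 list.

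Where a wide peak was shared, the partner peak of the other guide was often wide as well. Among shared peaks, the partner was at least 2000 bp wide for 6 of 9 wide peaks of sgRNA1 replicate 2 (66.7%, narrower 6.27%). The counts were 1 of 1 for sgRNA2 replicate 1 (100%, narrower 2.44%) and 11 of 11 for sgRNA2 replicate 2 (100%, narrower 6.94%). For sgRNA3 replicate 2 it was 2 of 3 (66.7%, narrower 9.60%). With sgRNA4 it was 54 of 116 (46.6%, narrower 3.68%), with sgRNA5 21 of 33 (63.6%, 4.54%) and with sgRNA6 58 of 198 (29.3%, 1.72%). The wide class was higher in 7 of 7 libraries and the classes did not overlap. The mean difference was 62.5 ± 25.2 percentage points (SD, n = 7; exact sign-flip permutation test, two-sided p = 0.0156, the smallest that 7 libraries allow, adjusted p = 0.0312). Each shared pair entered from both of its lists, so the 7 libraries are not fully independent of each other. The partner was judged by the same width limit that chose the members, so this difference is best read as a description. With any library other than sgRNA2 replicate 1 left out, the call was lost (adjusted p = 0.0625 by the same exact sign-flip test). The differences stayed at 57.4 to 68.3 points. The unadjusted p of 0.03125 was the smallest that 6 libraries allow, so this loss rests on the number of libraries. A limit of 3000 bp (adjusted p = 0.25 by the exact test) and at least 10 wide peaks per library (0.167) left too few libraries to pass. For the higher-scored 50%, merged peaks, narrower peaks of at least 1000 bp and without chromosome 1, the adjusted p was 0.0625 by that test. In each of these settings the unadjusted p of the same exact test stayed at 0.0156.

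For each other guide of which a wide peak overlapped exactly 1 peak, the distance between the 2 centres was taken, so a wide peak could enter once per guide and a pair of wide peaks from both of its lists. The centres of the pair lay a median of 358 bp apart (quartiles 154.5 and 616.5 bp, 784 pairs). For the 196 pairs with a wide partner the median was 180 bp, and for the 588 pairs with a narrower partner it was 406.5 bp. Of the 784 partner centres, 574 (73.2%) fell in the inner 50% of the wide peak. Centre distances were not taken for narrower peaks, so no share can be set beside this one.

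**Figure D4:**
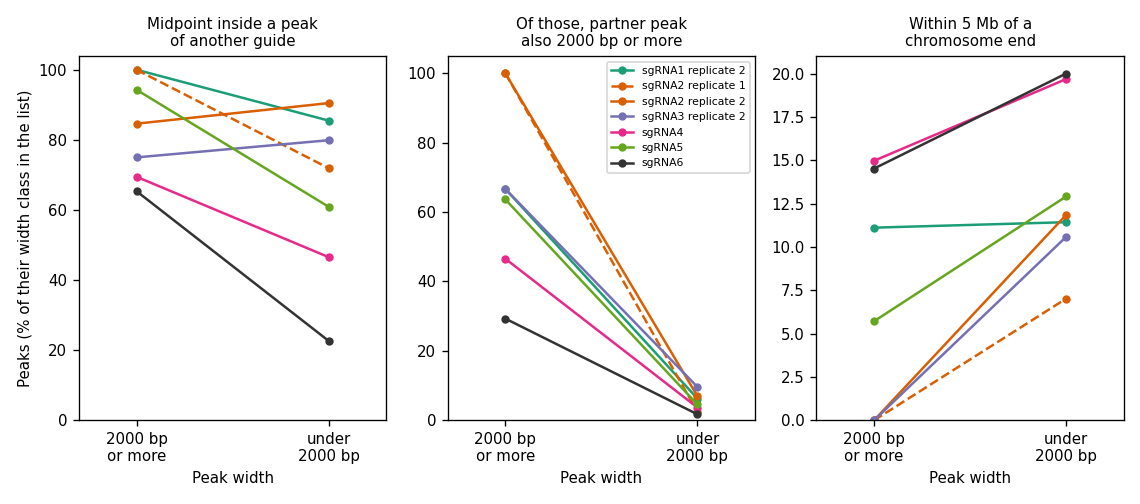
Percent of peaks (y axis) with the midpoint inside a peak of another guide, percent of those whose partner was at least 2000 bp wide, and percent within 5 Mb of a chromosome end, for wide peaks beside narrower ones, with 1 line for each of the 7 libraries with wide peaks. In the middle panel the 7 values for wide peaks lie between 29.3 and 100%, all above the 7 for narrower peaks, which lie between 1.72 and 9.60%.

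Overlapping wide peaks of all lists formed 441 distinct regions. In 372 of them (84.4%) the peak was wide with 1 guide, in 55 with 2, in 10 with 3 and in 4 with 4, and in 0 with 5 or 6. Regions wide with 1 guide were not always bound with 1 guide: 295 of the 372 (79.3%) also held a narrower peak of another guide, and 77 did not. Most of the 372 came from the longest lists, 243 from sgRNA6 and 109 from sgRNA4. Of all peaks, 27.1% in the sgRNA6 list and 53.1% in the sgRNA4 list overlapped a peak of another guide by at least 1 bp. This overlap grows with width by construction, so the 79.3% was not tested against those shares.

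Regions that were wide with 4 guides lay at chr1:161418529-161429790 and at 161411297 to 161418514, which are parts of the stretch described above, at chr1:206136345-206139176, and at chr17:19280615-19283037. The chromosome 17 region was 2197 bp wide in sgRNA1 replicate 2 (score 102), 2171 bp in sgRNA2 replicate 2 (54.4), 2034 bp with sgRNA4 (296) and 2293 bp with sgRNA6 (396), and held a narrower sgRNA5 peak of 1094 bp (212). The region at 206136345 was 2112 bp wide in sgRNA1 replicate 2 (score 151), 2007 bp with sgRNA4 (302), 2510 bp with sgRNA5 (531, rank 8 of 8346) and 2722 bp with sgRNA6 (423), beside a sgRNA3 replicate 2 peak of 1150 bp (90.8).

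The region with wide peaks in both sgRNA2 replicates, at chr13:62741061-62743883, was also wide with sgRNA4 (2514 bp, score 82.1) and sgRNA6 (2724 bp, score 51.1, rank 32692 of 33611). It was wide in all 4 lists in which it had a peak, and its scores there lay between 51.1 and 82.1. Of the 9 other regions wide with 3 guides, 5 lay at chr1:148927525-148931451 (sgRNA2, sgRNA4, sgRNA5) and at 228268929 to 228272182 (sgRNA4, sgRNA5, sgRNA6), at chr14:19640347-19643524 (sgRNA3, sgRNA4, sgRNA6), at chr16:30932347-30935364 (sgRNA2, sgRNA5, sgRNA6) and at chr7:150776294-150781223 (sgRNA2, sgRNA4, sgRNA6).

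In contrast to these, some high wide peaks were found with 1 guide alone. The following were picked after their values were seen, as the highest-scored of that kind. With sgRNA4 they lay at chr16:57601798-57604251 (2454 bp, score 1901, rank 4 of 13660), at chr9:91672868-91675539 (2672 bp, 1695, rank 7) and at chr15:30240939-30242983 (2045 bp, 1220, rank 15). With sgRNA6 they lay at chr10:134365165-134367683 (2519 bp, 1541, rank 50) and at chr12:132816931-132819999 (3069 bp, 1271, rank 70). The only such sgRNA5 peak was at chr6:2200686-2202713 (2028 bp, 187, rank 192 of 8346). Over all sgRNA4 wide peaks, the median score percentile was 90.8 for those overlapping another guide and 91.9 for those without, and with sgRNA6 it was 96.1 and 94.6.

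Wide peaks were unevenly spread over the chromosomes. Chromosome 1 held 28.1% of the wide and 11.9% of the narrower sgRNA4 peaks, 45.7% and 13% with sgRNA5, and 19.5% and 11.6% with sgRNA6. Chromosome 17 held 11.4% of wide and 8.43% of narrower peaks with sgRNA4, 14.3% and 7.5% with sgRNA5, and 15.8% and 7.65% with sgRNA6. Chromosome 19 was the reverse, with 4.19% of wide and 7.78% of narrower peaks with sgRNA4, 0% and 6.55% with sgRNA5, and 3.63% and 6.79% with sgRNA6. Chromosome 4 held 2 wide peaks in all lists together, both with sgRNA4, against 385, 245 and 956 narrower peaks with sgRNA4, sgRNA5 and sgRNA6. These chromosomes were chosen after their values were seen, so no test was made.

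**Figure D5:**
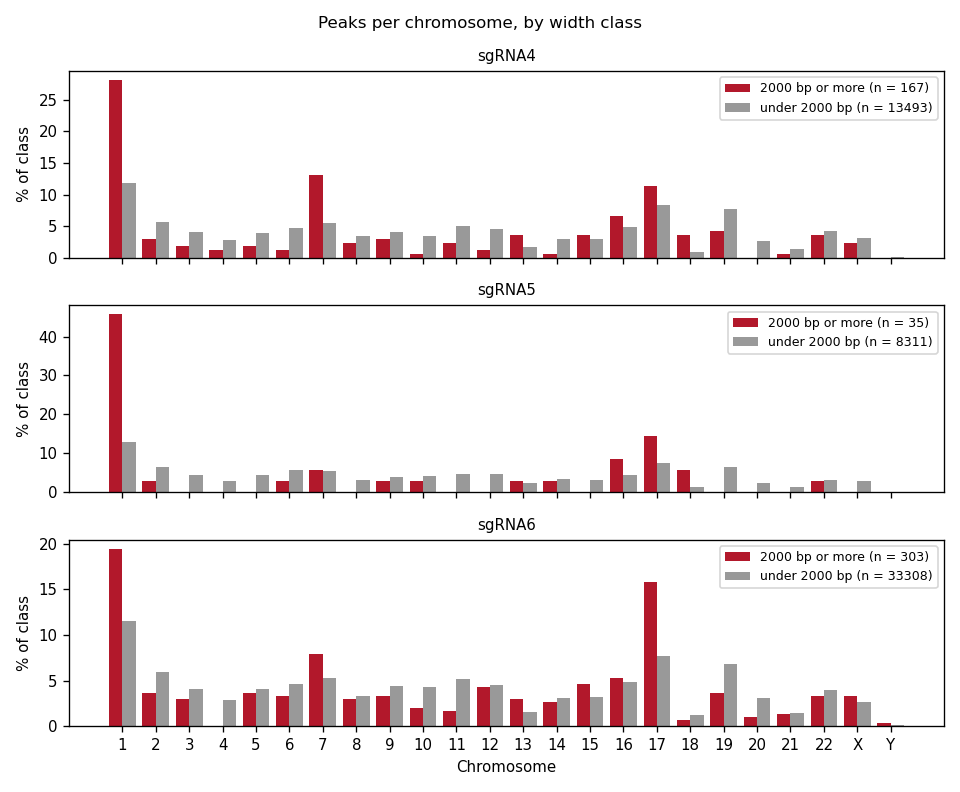
Share of the peaks of each width class (y axis, percent) that lay on each chromosome (x axis), for peaks of 2000 bp or more beside narrower peaks of the sgRNA4, sgRNA5 and sgRNA6 lists. Chromosomes 1 and 17 hold a larger share of the wide peaks in all 3 lists, and chromosome 19 a smaller one.

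On chromosome 1 the wide peaks lay mostly on 1 side. The longest stretch of that chromosome with no peak in any list, 121261886 to 142656001 (21.4 Mb), divides it in 2. Over all 9 lists, 102 wide and 2952 narrower peaks lay after this stretch, on the long arm side, and 30 wide and 3990 narrower peaks before it. The split held in every list with wide peaks on chromosome 1: after and before the stretch there were 34 and 13 with sgRNA4, 14 and 2 with sgRNA5, 44 and 15 with sgRNA6, 3 and 0 in sgRNA1 replicate 2, 5 and 0 in sgRNA2 replicate 2 and 2 and 0 in sgRNA3 replicate 2. As a share of the list, the part after the stretch held 14.5% of the wide and 4.70% of the narrower sgRNA6 peaks, 20.4% and 5.18% with sgRNA4, and 40% and 5.82% with sgRNA5. This side was picked after its values were seen and the difference was not tested.

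On a scale of 1 Mb, 286 intervals held a wide peak, and the 5 with the most contained 76 of the 532 (14.3%). These 5 were picked by their number of wide peaks, so their shares are high by selection and were not tested. On chromosome 1 at 161 to 162 Mb, 18 of 84 peaks of any list were wide (21.4%), 16 of them in the 29.3 kb stretch described above. At 228 to 229 Mb it was 16 of 157 (10.2%), from 5 guides. On chromosome 16 at 30 to 31 Mb it was 15 of 191 (7.85%), on chromosome 7 at 150 to 151 Mb 15 of 122 (12.3%), and on chromosome 17 at 19 to 20 Mb 12 of 107 (11.2%). Over all intervals 0.917% of peaks were wide.

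Chromosomes 16, 17, 19 and 22, which are known for dense genes, held 25.7% of wide and 25.2% of narrower sgRNA4 peaks, 25.7% and 21.6% with sgRNA5, and 28.1% and 23.3% with sgRNA6. The shares were 22.2% and 19.3% in sgRNA1 replicate 2, 0% and 10.5% in sgRNA2 replicate 1, 38.5% and 18.7% in sgRNA2 replicate 2, and 25% and 19.3% in sgRNA3 replicate 2. The mean difference of 3.89 ± 8.91 percentage points (SD, n = 7), positive in 6 of 7 libraries, did not pass the test (exact sign-flip permutation test, two-sided p = 0.344, adjusted p = 0.344). Without sgRNA2 replicate 1, which holds 1 wide peak, it was 6.29 points (same exact test, adjusted p = 0.0417), so that library decides the call. Without sgRNA2 replicate 2 it was 1.24 points, and without all replicate 2 lists it was -0.296. Other settings placed it between -10.0 points (limit of 3000 bp) and 14.5 (without chromosome 1), with 0.361 for the widest 1%, 5.97 for merged peaks and 7.28 for libraries with at least 10 wide peaks, none of which passed.

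In each of the 7 libraries a smaller share of wide than of narrower peaks lay near a chromosome end. Many settings ended the call, some of them because fewer libraries were left. Within 5 Mb of an end, with each chromosome taken to stop at the last peak of any list, lay 15% of wide and 19.7% of narrower sgRNA4 peaks, 5.71% and 12.9% with sgRNA5, and 14.5% and 20% with sgRNA6. In the replicated guides the shares were 11.1% and 11.4% in sgRNA1 replicate 2, 0% and 7.02% in sgRNA2 replicate 1, 0% and 11.8% in sgRNA2 replicate 2, and 0% and 10.6% in sgRNA3 replicate 2. The mean difference was -6.74 ± 3.83 percentage points (SD, n = 7), negative in 7 of 7 libraries (exact sign-flip permutation test, two-sided p = 0.0156, the smallest possible, adjusted p = 0.0312). The values of 0% rest on 1, 13 and 4 wide peaks. With 1 and 4 wide peaks and narrower shares of 7.02% and 10.6%, 0 is the likeliest count even without a difference. The sign-flip test takes both signs as equally likely, so the 7 of 7 and its p overstate the evidence. With a width limit of 3000 bp the direction turned, to 7.29 points over 4 libraries. Leaving out any library other than sgRNA2 replicate 1 ended the call (adjusted p = 0.0625 by the exact sign-flip test, differences of -7.81 to -5.88 points). The unadjusted p of 0.03125 in the same exact sign-flip test was the smallest possible with a library left out. This loss thus rests on the number of libraries. The call was also lost in the exact sign-flip test with merged peaks (-2.43 points, adjusted p = 0.453) and the higher-scored 50% (-5.33, 0.156). The exact sign-flip test lost it too against narrower peaks of at least 1000 bp (-6.07, adjusted p = 0.125) and without chromosome 1 (-5.62, 0.0781). With at least 10 wide peaks per library the difference was -7.31 points (exact sign-flip test, adjusted p = 0.167), and 4 libraries were too few to pass.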

How the data were processed

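Peak lists of 9 HA ChIP-seq libraries with dCas9 and 1 of 6 guides were analysed. Of the 12 samples described, 3 were not analysed here. The submitters' processing notes name Bowtie, Bowtie2, MACS and hg19, without a version. Settings are not given in the sources that were used here. The deposited lists give chromosome, start, end, name and a score per peak, 1 list per library, and no score is under 50. Read depth is unknown.

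Peaks with end minus start of at least 2000 bp were compared with the narrower peaks of the same list. Sharing was counted by midpoint, or by 1 bp of overlap with both replicates of a guide joined. Differences in percent per library were tested by an exact sign-flip permutation test over libraries, adjusted by Benjamini-Hochberg over 4 tests. The share of wide peaks was tested by an exact permutation test over the 6 libraries of the replicated guides. Alternatives were width limits of 1500 and 3000 bp, the widest 1% of each list, the higher-scored 50%, peaks within 1000 bp merged, other overlap rules, narrower peaks of at least 1000 bp, 10 Mb from an end, libraries with at least 10 wide peaks, covered length, a replicate block and left-out libraries. Midpoints within 500 bp and leaving out chromosome 1 were added after seeing the data. Named regions are the wide peaks of the replicated guides (the 5 widest in lists with over 10), the 5 widest of the other lists, the 10 regions wide with the most guides and the peaks nearest the limit. The members and rules were chosen with earlier results of these data known. The overlap code and tests were tested on simulated data. Python 3.11.15, numpy 2.4.6, pandas 2.3.3, scipy 1.17.1 and matplotlib 3.10.9 were used.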

Additional observations from a re-analysis of the deposited data

Results flagged for a closer look

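One result was flagged because its sign differed between guides. The share of peaks with their midpoint inside a peak of another guide was lower for wide than for narrower peaks with sgRNA3 (-4.89 percentage points in replicate 2, its only list with wide peaks, 4 of them), and higher in all lists with wide peaks of sgRNA1 (14.5), sgRNA4 (22.9), sgRNA5 (33.4) and sgRNA6 (42.7). With sgRNA2 it was lower in replicate 2 (-5.87, 13 wide peaks) and higher in replicate 1 (28.1, 1 wide peak). With 4 wide peaks, 1 more shared peak would turn the sign for sgRNA3, so its count cannot show a difference between guides. The difference between the guides was not tested.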

How the results depend on the processing

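Of 101 alternative values for 8 results, 63 kept their direction and side of the threshold or stayed within the set limit, and 38 did not. With limits of 1500 and 3000 bp, 50.6 and 65.4% of wide peaks overlapped several peaks of other guides. At 3000 bp the partner difference was 45.7 points (4 libraries, too few to pass), that on gene-dense chromosomes -10.0, that near ends 7.29, replicate support 0%, and the guides' spread in share 0.0782 points with sgRNA1 highest. Taking the widest 1% of each list fixes that share but for rounding and ties (0.714 points, sgRNA3 highest). For the higher-scored 50% and for merged peaks, the partner difference was 62.6 and 66.4, that near ends -5.33 and -2.43, and 44.8 and 41.4% overlapped several peaks. With at least 10 wide peaks per library the partner difference was 55.6 and that near ends -7.31 (4 libraries), against narrower peaks of at least 1000 bp 48.6 and -6.07, and without chromosome 1 55.3 and -5.62. All of these partner and end differences missed the threshold, which no difference over 4 libraries could have passed. Sharing without the sgRNA6 list passed it (24.9 points). Leaving out replicates or single libraries, the ranges were 14.7 to 31.6 points for sharing, 55.6 to 68.3 for the partner, -0.296 to 6.29 for gene-dense chromosomes and -7.81 to -5.88 near ends. With a replicate block, the guides' range in share of wide peaks stayed 1.65 points and gave p = 0.333 in the exact permutation test (6 arrangements), and the labels give the numbers no shared batch. The causes were not tested. Unknown depth limits any comparison of list lengths.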

Other observations

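Wide peaks often had a neighbour in their own list. Another peak of the list lay within 10 kb of 67.0% of wide and 55.9% of narrower peaks with sgRNA6, 42.9% and 22.1% with sgRNA5, and 56.3% and 37.1% with sgRNA4. In sgRNA2 replicate 2 this was the case for 0% of wide and 2.15% of narrower peaks. Distinct wide regions within 10 kb of each other formed 20 clusters with 66 wide peaks, and 14 of the clusters held wide peaks of at least 2 guides. After the chromosome 1 stretch at 161411297, the next largest clusters were 2 on chromosome 7, at 150772017 to 150786946 with 6 wide peaks of 3 guides and at 150741855 to 150760590 with 5 wide peaks of 2 guides.

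Wide peaks found with all 5 other guides numbered 5 with sgRNA6 (1.65% of wide peaks), 1 with sgRNA4 (0.599%) and 1 with sgRNA5 (2.86%). Of narrower peaks, 19 with sgRNA6 (0.0570%), 23 with sgRNA4 (0.170%) and 22 with sgRNA5 (0.265%) were found with all 5. The sgRNA6 peak at chr13:88323224-88326169 (2946 bp, score 518) overlapped 8 peaks of other guides, of which 3 belonged to 1 guide.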
